A study of Mus musculus with 4 samples.

Results

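The 9 genes described here make, store and break down monoamines: the enzymes Th, Tph1, Ddc, Dbh and Gch1, the vesicle carriers Slc18a1 and Slc18a2, and the oxidases Maoa and Maob. They were chosen by name, and all 9 were found among the 24319 gene names of the deposited tables. Of the 9, 5 passed the filter on low values (Ddc, Gch1, Slc18a1, Maoa and Maob), and Th, Tph1, Dbh and Slc18a2 did not. The set was proposed with results of these libraries in view, so its values are given as a description, with no p for a member. RNA-seq compared 2 normal prostates with 2 prostate tumours of TRAMP mice. Each mouse was a male F1 hybrid from a cross of the C57BL/6 and FVB strains. The normal prostates came from wild-type mice of 22 weeks. The late-stage tumours came from mice of 24 weeks that carried 1 copy of an SV40 T antigen transgene under the rat probasin promoter, which is active in prostate epithelium. The groups thus also differ in age, which cannot be told apart from the tumour.

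Monoamines are small signalling molecules made from aromatic amino acids. In the serotonin branch, Tph1 or Tph2 hydroxylates tryptophan and Ddc removes the carboxyl group. In the catecholamine branch, Th hydroxylates tyrosine, the same Ddc gives dopamine, and Dbh turns dopamine into noradrenaline. The hydroxylases need tetrahydrobiopterin, whose synthesis starts with Gch1. The carriers VMAT1 (Slc18a1) and VMAT2 (Slc18a2) load amines into secretory vesicles, and monoamine oxidases A and B on the outer mitochondrial membrane degrade them. In the prostate, scattered neuroendocrine cells are known to hold serotonin, and sympathetic nerves supply noradrenaline to the smooth muscle.

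The libraries held 985509 to 1578847 fragments, as estimated from the deposited confidence intervals. Values are FPKM (fragments per kilobase of transcript, relative to all mapped fragments of the library) divided by a factor per library that sets the median gene equal, and are called levels below. The factors shift the tumours against the normal prostates by 0.94 on the log2 scale. An interval beside a level is the deposited confidence interval divided by the same factor, which covers the measurement of 1 library and not the spread between mice. Whether each tumour is from a separate mouse is not spelled out in the labels, so a test measures only the spread between these samples. The normal libraries held all 8 luminal epithelial markers above 0, with summed levels of 10680 and 10130. The sum was 317 in tumour 1, where 3 of the 8 were listed at 0, and 1112 in tumour 2. Pbsn (7022 and 6280) and Tgm4 (1780 and 1621) made up most of the normal sums, and Hoxb13 (295) most of that of tumour 1. Krt8 went the other way in tumour 2, at 438 against 178 and 191 in the normal libraries. In bulk tissue, more cells of a type and more RNA per cell cannot be told apart.

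Promoter windows are printed for Ddc, for the 3 genes that were high in tumour 2 alone (Tph1, Gch1 and Slc18a2) and for Th, the alternative hydroxylase, so that the starts of genes with like and unlike levels can be compared. Each runs from 250 bases before to 20 bases after a RefSeq transcript start (GRCm38.p6), 5′ to 3′ on the gene's strand. Capitals mark TGACG on either strand, the core of the cyclic AMP response element.
Ddc, chr11:11890389-11890658, minus strand: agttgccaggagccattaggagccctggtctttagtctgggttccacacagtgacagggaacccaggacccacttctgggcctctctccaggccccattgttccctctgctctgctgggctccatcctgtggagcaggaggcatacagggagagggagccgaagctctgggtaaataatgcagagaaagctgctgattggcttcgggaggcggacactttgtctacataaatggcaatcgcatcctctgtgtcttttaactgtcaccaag
Tph1, chr7:46667358-46667627, minus strand: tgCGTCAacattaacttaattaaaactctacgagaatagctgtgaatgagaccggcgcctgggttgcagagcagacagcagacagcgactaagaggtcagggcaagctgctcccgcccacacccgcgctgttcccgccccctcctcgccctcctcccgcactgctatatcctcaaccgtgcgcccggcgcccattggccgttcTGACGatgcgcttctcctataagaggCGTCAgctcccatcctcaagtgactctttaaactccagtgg
Th, chr7:142899976-142900245, minus strand: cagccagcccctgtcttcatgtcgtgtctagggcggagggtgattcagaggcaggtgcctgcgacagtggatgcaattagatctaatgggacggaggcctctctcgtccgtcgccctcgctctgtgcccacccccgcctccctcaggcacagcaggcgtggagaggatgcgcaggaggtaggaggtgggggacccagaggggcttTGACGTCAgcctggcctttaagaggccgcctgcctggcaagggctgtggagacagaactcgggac
Gch1, chr14:47189394-47189663, minus strand: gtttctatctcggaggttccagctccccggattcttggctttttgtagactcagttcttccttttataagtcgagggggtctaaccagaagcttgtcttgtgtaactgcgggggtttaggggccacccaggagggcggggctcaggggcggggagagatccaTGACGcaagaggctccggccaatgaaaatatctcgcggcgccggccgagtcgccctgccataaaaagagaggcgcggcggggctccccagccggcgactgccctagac
Slc18a2, chr19:59260628-59260897, plus strand: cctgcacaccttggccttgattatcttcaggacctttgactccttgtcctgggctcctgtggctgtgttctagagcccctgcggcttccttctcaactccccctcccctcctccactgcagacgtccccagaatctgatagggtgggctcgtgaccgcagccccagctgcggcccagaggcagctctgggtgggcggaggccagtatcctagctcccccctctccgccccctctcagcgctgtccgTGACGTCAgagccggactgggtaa
The RefSeq table held windows for 7 of the 9 genes, 9 windows in all, with 2 starts each for Ddc and Tph1. TGACG was found in 6 of the 7 genes, or 7 of the 9 windows, and in neither Ddc window. It occurs in 19.5% of 32540 mouse promoter windows of the same length. The whole palindrome TGACGTCA contains TGACG on both strands. It was found in 2 of the 7 genes, or 2 of the 9 windows, against 1.74% of all windows. It begins 45 bases before the Th start and 4 bases before the Slc18a2 start. In the printed Tph1 window TGACG begins 248, 47 and 21 bases before the start, and in Gch1 88 bases before it. CCAAT was found in 4 of the 7 genes, or 4 of the 9 windows (35.4% of all windows). It begins 55 bases before the printed Ddc start and 58 bases before that of Tph1. The E-box CAGCTG was found in Slc18a2 alone of the 7, or 1 of the 9 windows (14.3% of all windows). The forkhead core TGTTTAC was found in none of them (3.39%). A match is a description of the letters and no measurement of binding, and Th, with the same palindrome as Slc18a2, was low in both tumours. The deposited values are per gene, so the starts of Ddc and of Tph1 cannot be told apart.

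Ddc, the decarboxylase that both branches share, was the one member that was high in both tumours. The gene lies on chromosome 11, 11814101 to 11898144 (GRCm38). Its level was 1.06 in normal 1, on 1.3 estimated fragments, and it was listed at 0 in normal 2. It was 202 in tumour 1 (interval 186 to 218) and 239 in tumour 2 (220 to 258). Both tumours lay far above both normal prostates, and they differed from each other by a ratio of 1.18. Ddc ranked 222 of 24319 genes in tumour 1 and 209 in tumour 2, by FPKM. Its difference between tumour and normal was 7.27 on the log2(level + 1) scale (SE 0.46), at 7.14 for tumour 1 and 7.39 for tumour 2. Ddc passed the filter through the tumours alone, and with normal values this low the difference depends on the pseudocount, reaching 9.33 with a pseudocount of 0.1. Ddc overlaps 1700042O10Rik on the opposite strand, which was listed at 0 in all 4 libraries and shares 0 exon bases with it.

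Tph1, the tryptophan hydroxylase of peripheral serotonin-making cells, was detected in 1 library. It had no value above 0 in normal 1, normal 2 or tumour 1, and lay at 141 in tumour 2 (interval 118 to 164, on 149.8 estimated fragments). That value ranked 341 of 24319 genes in tumour 2. Tph1 (chromosome 7, 46644641 to 46672537) therefore separated the tumours from each other and not the groups. Tph2, the form known from brain, was at 0 in both normal prostates and at 0.682 and 0.802 in the tumours, far below Tph1 in tumour 2.

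Th, the tyrosine hydroxylase (chromosome 7, 142892776 to 142899966), was low where it was found at all. Neither normal prostate had a value above 0 for it. It lay at 2.39 in tumour 1 (interval 0.797 to 3.99, on 9 estimated fragments) and at 0.625 in tumour 2 (0 to 1.51, on 2). Both tumours lay above the normal prostates, but the intervals of the tumours overlap and that of tumour 2 reaches 0. Dbh, the enzyme that makes noradrenaline (chromosome 2, 27165507 to 27183204), was listed at 0 in all 4 libraries. Pnmt, which turns noradrenaline into adrenaline, was likewise at 0 in all 4.

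Gch1, GTP cyclohydrolase 1, which starts tetrahydrobiopterin synthesis (chromosome 14, 47153895 to 47189402), followed Tph1 in tumour 2. Its level was 1.45 in normal 1, 1.97 in normal 2, 2.42 in tumour 1 and 30.8 in tumour 2. Tumour 1 was close to the normal prostates (interval 1.16 to 3.68), and tumour 2 (26.0 to 35.7) was 12.7 times tumour 1. The group difference of 1.95 (SE 1.11) rests on tumour 2, since it was 0.34 without it and 3.58 without tumour 1. Gch1 ranked 1941 of 24319 genes in tumour 2 and 10176 in tumour 1.

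The vesicle carriers were high in different libraries, Slc18a2 in tumour 2 and Slc18a1 in the normal prostates. Slc18a2 (VMAT2, chromosome 19, 59260878 to 59296012) was at 0.776 in normal 1, 0.700 in normal 2, 0.574 in tumour 1 and 23.9 in tumour 2 (interval 20.2 to 27.5). Tumour 1 lay below both normal prostates and tumour 2 was 41.7 times tumour 1, so the groups overlap. The mean difference of 1.85 turned to -0.13 without tumour 2. An antisense gene of GENCODE M21, Gm29261, shares 111 exon bases with Slc18a2 and is not used here.

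Slc18a1 (VMAT1, chromosome 8, 69037708 to 69089222) was the highest member in normal prostate. Its level was 7.19 in normal 1 (interval 4.12 to 10.2) and 10.4 in normal 2 (7.37 to 13.4). It was listed at 0 in tumour 1 and was 0.834 in tumour 2 (0.088 to 1.58, on 5 estimated fragments). Both tumours lay below both normal prostates, with a difference of -2.83 (SE 0.50). Its locus overlaps that of Atp6v1b2, a proton pump subunit on the opposite strand, with 0 shared exon bases. Atp6v1b2 was at 49.5 and 50.1 in the normal prostates and at 40.2 and 32.4 in the tumours.

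Of the oxidases, Maoa was higher in tumour 1. Monoamine oxidase A degrades serotonin and noradrenaline, and its gene lies beside Maob on chromosome X (16619698 to 16687812). Its level was 2.82 in normal 1, 1.91 in normal 2, 13.6 in tumour 1 (interval 11.3 to 16.0) and 3.50 in tumour 2 (2.18 to 4.82). Tumour 1 was 3.90 times tumour 2, and the interval of tumour 2 overlaps that of normal 1 (1.19 to 4.46). The group difference was 1.28 (SE 0.68), at 0.48 without tumour 1 and 2.11 without tumour 2.

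Maob, the oxidase that prefers phenylethylamine (chromosome X, 16709281 to 16817366), did not separate the groups. Its level was 2.53 in normal 1, 0.285 in normal 2, 3.93 in tumour 1 and 0.440 in tumour 2, on 6, 1, 21 and 2 estimated fragments. The groups overlap, the difference was 0.32 (SE 0.82), and it turned to -0.091 under quantile normalization, -0.46 without normal 2 and -0.52 without tumour 1. Tumour 1 was 8.92 times tumour 2, and their intervals do not overlap (2.21 to 5.64 against 0 to 1.06).

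**Figure D1:**
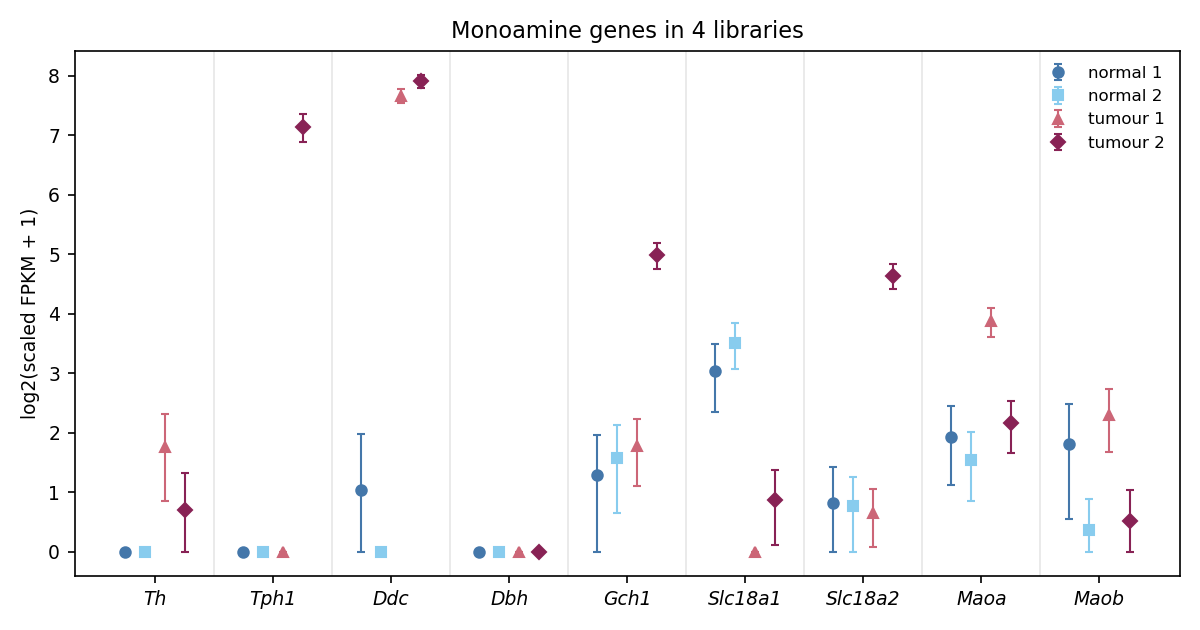
Levels of the 9 genes in each of the 4 libraries. The y axis is log2(scaled FPKM + 1), each point is 1 library, and bars are the deposited confidence intervals on the same scale. Ddc is high in both tumours (202 and 239), Tph1, Gch1 and Slc18a2 in tumour 2 alone (141, 30.8 and 23.9), and Slc18a1 in the normal prostates (7.19 and 10.4).

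FPKM is per transcript length, so levels can be ordered within a library. In normal 1 the order was Slc18a1, Maoa, Maob, Gch1, Ddc and Slc18a2, and the intervals of all neighbours in it overlap. In normal 2 it was Slc18a1, then Gch1, Maoa, Slc18a2 and Maob, and Slc18a1 alone lay clear of its neighbour. In tumour 1 Ddc lay clear of Maoa and Maoa clear of Maob, while the intervals from Maob through Gch1 and Th to Slc18a2 overlap in turn. In tumour 2 the order began with Ddc, Tph1, Gch1 and Slc18a2. Of these, Gch1 and Slc18a2 overlap, and Slc18a2 lay clear of Maoa, which lay clear of Slc18a1. The last 3 there, Slc18a1, Th and Maob, overlap in turn. Tumour 2 thus held Ddc, Tph1, Gch1 and Slc18a2 above the other members. Of these, Tph1 alone is particular to the serotonin branch, and the other vesicle carrier, Slc18a1, was at 0.834 there. Tumour 1 held Ddc at a like level with Tph1 listed at 0 and Slc18a2 at 0.574.

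In the limma fit over 13162 genes, 1 of the 5 tested members was called higher (Ddc), against 9.85% of all genes, and 1 was called lower (Slc18a1), against 8.27%. Since the members were proposed from this contrast, nothing is read from these counts. Without normal 1 or without normal 2, limma called 0 members and 0 genes in all, although 1 member in each direction was under 0.05 before adjustment. The groups did not overlap in 4 of the 5, with Ddc, Gch1 and Maoa higher (37.7% of all genes tested) and Slc18a1 lower (33.3%). Between the tumours, 3 of the 8 members with an FPKM of at least 1 in a tumour (Tph1, Slc18a2 and Gch1) were higher in tumour 2 by a log2 difference of at least 3. The same held for 3.24% of 14520 genes, and 0 members were as far higher in tumour 1 (0.448% of genes). This is a comparison of 2 libraries, with no replicate check. The limit of 3 was set after these values were seen, and Tph1 and Slc18a2 entered the 8 through tumour 2 alone. Nothing is therefore read from this count either.

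**Figure D2:**
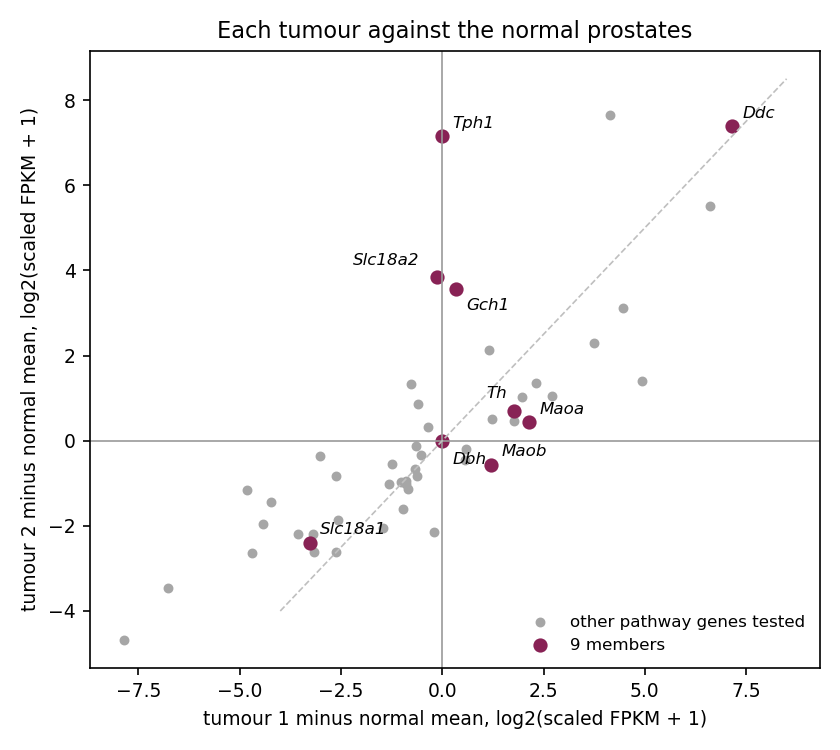
Difference of tumour 1 (x axis) and of tumour 2 (y axis) from the mean of the normal prostates, on the log2(scaled FPKM + 1) scale, for the 9 members (large points) and the 42 tested genes of the pathway lists (grey). The dashed line marks equal differences. Ddc lies near it at 7.14 and 7.39, and Tph1 (0 and 7.15), Slc18a2 (-0.14 and 3.84) and Gch1 (0.34 and 3.56) lie along the y axis.

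Cell type markers were set beside these values. Of 10 neuroendocrine markers, among them chromogranins, secretogranins and the factor Insm1 that recurs below, 9 rose in the limma fit (all but Calca). Over all genes tested, 9.85% rose. Each of the 9 passed the filter through the tumours alone. The list was also chosen with earlier results of these data known, so nothing is read from this count. The summed level of the 10 was 2.96 and 0.914 in the normal prostates against 645 in tumour 1 and 1101 in tumour 2. Rodent mast cells also make serotonin, with Tph1 and Slc18a2. Of 9 mast cell markers, 8 were listed at 0 in tumour 1, where Kit made up the whole sum of 38.9. In tumour 2, where the sum was 28.4, 3 were at 0, Kit was at 20.2 and the other 5 lay between 0.221 (Hdc) and 2.73 (Tpsab1), far below Tph1 at 141. All 9 were at 0 in the normal prostates. Platelets carry serotonin and Slc18a2 RNA, and of 6 platelet markers 3 were at 0 in each library. Their sum was 2.50 and 2.80 in the normal prostates, 23.2 in tumour 1 and 37.5 in tumour 2. Pf4 made up most of the tumour sums (12.8 and 37.1). Itga2b went the other way, at 1.44 and 1.75 in the normal prostates against 0.255 and 0 in tumours 1 and 2. For Th, the sum of the 10 sympathetic neuron markers was 45.5 and 46.8 in the normal prostates, 70.2 in tumour 1 and 31.0 in tumour 2. Of the 10, 7 and 5 were at 0 in normals 1 and 2, and 2 and 3 in tumours 1 and 2. Single genes made up most of 3 of these sums, Gata3 in the normal prostates (39.6 and 31.4) and Prph in tumour 1 (58.5). For Maoa, the smooth muscle sum was 631 and 586 in the normal prostates, 3.86 in tumour 1 and 113 in tumour 2, the opposite order to the Maoa level of the tumours. Tumour 2 also exceeded tumour 1 in the summed markers of macrophages (317 against 75.7), endothelium (33.7 against 2.24) and fibroblasts (264 against 33.9). For Slc18a1, the basal epithelial sum was 72.8 and 71.1 in the normal prostates, 0 in tumour 1 with all 4 markers at 0, and 24.6 in tumour 2. The smooth muscle and luminal epithelial sums were likewise highest in the normal prostates and lowest in tumour 1. The part of these cell types in the levels of the members was not tested.

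**Figure D3:**
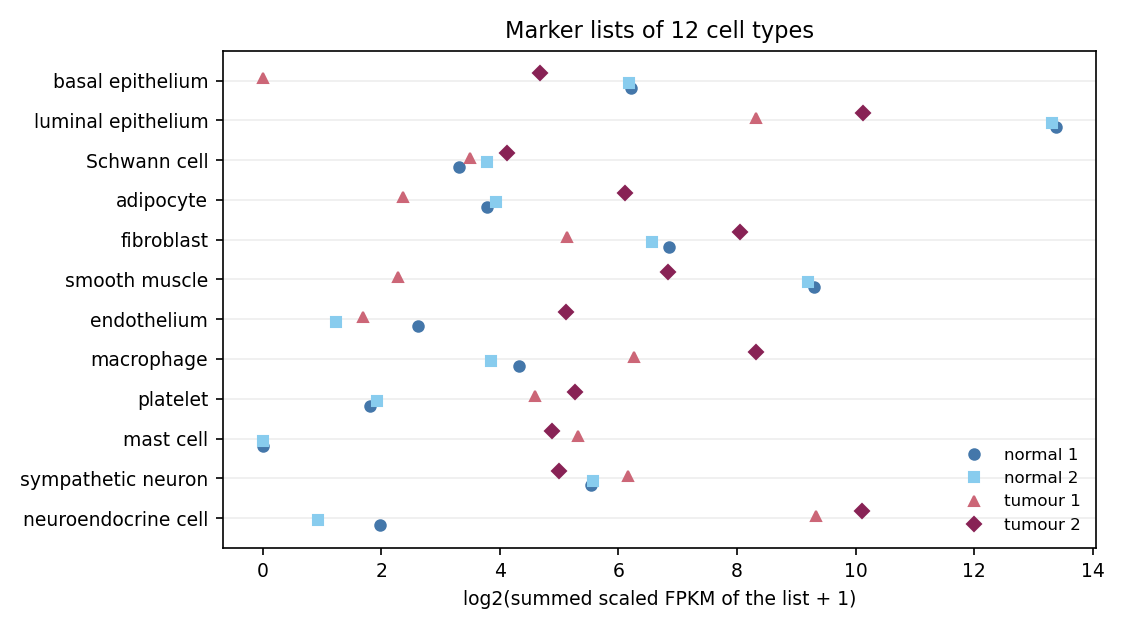
Summed level of the markers of 12 cell types in each library. The x axis is log2(summed scaled FPKM + 1), and each point is 1 library. Neuroendocrine markers are high in both tumours (645 and 1101), and basal epithelial markers are at 0 in tumour 1.

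The rest of the pathway was followed in 4 lists of 90 genes, of which 42 passed the filter. In the limma fit with Benjamini-Hochberg adjustment 4 of the 42 rose (9.85% of all genes did), 10 fell (8.27%) and 28 did not pass, with a median log2 fold change of -0.91, against 0.07 over all genes. The split depends on the scaling. Taking FPKM as deposited, limma called 7 of these genes higher and 3 lower, and 89.6% of the calls over all genes were higher, against 54.4% after scaling. Scaled to the sum without genes above 1% of a library, 5 rose and 6 fell. Without tumour 1, 0 rose and 18 fell of 33 tested, and without tumour 2, 1 rose and 19 fell of 32. Both of these fits take the spread of the single tumour from the normal libraries. Without normal 1 or without normal 2 limma called 0 of them, with 5 and 4 higher and 7 and 8 lower at an unadjusted p under 0.05.

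Most cofactor and precursor genes did not pass the test. Of 14 tested of 20, 1 rose, 3 fell and 10 did not pass. Gchfr, the protein that mediates feedback inhibition of GTP cyclohydrolase 1, was at 124 and 125 in the normal libraries, against 3.87 in tumour 1 and 19.3 in tumour 2, and its log2 difference was -3.66 with SE 0.71 (adjusted p = 0.0355). Its partner Gch1 was highest in tumour 2. The call of Gchfr was lost with FPKM as deposited and under quantile normalization. Pcbd2, a pterin dehydratase, fell by 1.76 (SE 0.37, adjusted p = 0.0399), and the amino acid transporter Slc7a8 fell by 2.21 (SE 0.46, adjusted p = 0.0398). Both calls were lost with FPKM as deposited, when scaled to the sum without genes above 1% of a library, and without the filter. That of Pcbd2 was also lost under quantile normalization and without the intensity trend, and that of Slc7a8 with a pseudocount of 0.1. Pts and Spr, the later enzymes of tetrahydrobiopterin synthesis, were at 40.7 and 43.1 and at 43.2 and 38.8 in the normal prostates, against 5.94 and 23.3 and against 22.2 and 18.0 in the tumours. Neither passed (adjusted p of 0.118 and 0.0724).

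Uptake and breakdown genes held most of the falls. Of 13 tested of 20, 1 rose, 6 fell and 6 did not pass. Slc29a4, the plasma membrane monoamine transporter PMAT, was listed at 0 in each normal library and had a level of 21.1 in tumour 1 and 7.70 in tumour 2 (adjusted p = 0.0256). Slc6a2, the noradrenaline transporter, which is also 1 of the sympathetic markers, fell from 5.39 and 12.0 to 0.0176 in tumour 1 and 0.497 in tumour 2 (log2 difference -2.88 with SE 0.53, adjusted p = 0.0330). Slc6a2 passed the filter through the normal libraries alone, and its call was lost with a pseudocount of 0.1. The serotonin and dopamine transporters Slc6a4 and Slc6a3 were listed at 0 in all 4 libraries. Of the aldehyde dehydrogenases, which oxidise the products of the monoamine oxidases, Aldh1a1 was at 158 and 113 in the normal libraries, 0.226 in tumour 1 and 11.2 in tumour 2, and it fell by 5.13 (SE 1.11, adjusted p = 0.0427). Aldh3a2 fell by 2.87 (SE 0.51, adjusted p = 0.0312). Both of these calls were lost with FPKM as deposited and under quantile normalization. The call of Aldh1a1 was also lost when scaled to the sum without genes above 1% of a library and with a pseudocount of 0.1. Also called lower were Hnmt, the histamine methyltransferase (-2.69), and the aldehyde reductase Akr1a1 (-0.99). The call of Hnmt was lost with FPKM as deposited and with a pseudocount of 0.1. The Akr1a1 difference is near the scaling shift of 0.94. It was -0.053 with FPKM as deposited, and its call was lost under each of the 3 other scalings.

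Receptors for monoamines were sparse. Of 33, 13 were listed at 0 in all 4 libraries and 6 could be tested, of which 0 rose, 1 fell and 5 did not pass. Adrb3, the beta-3 adrenergic receptor, fell from 4.67 and 5.71 in the normal libraries to a listed 0 in each tumour (adjusted p = 0.0228). It passed the filter through the normal libraries alone, and its call was lost without the filter. Htr3a, a subunit of the serotonin-gated ion channel, was the receptor with the highest mean, with 2.50 and 1.69 in the normal libraries, 92.3 in tumour 1 and 7.04 in tumour 2 (log2 difference 3.16 with SE 1.20, adjusted p = 0.121). It was highest in the tumour in which Tph1 was listed at 0. The Htr3a difference was 4.89 without tumour 2 and 1.43 without tumour 1, each resting on 1 tumour.

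Among transcription factors known from monoamine neurons and sympathetic or chromaffin cells, 2 of 9 tested rose and 7 did not pass. Insm1, a zinc finger factor of endocrine cells, rose from 0 and 0.112 to 102 in tumour 1 and 47.5 in tumour 2 (log2 difference 6.07 with SE 0.50, adjusted p = 0.0195). Insm1, Slc29a4 and Lmx1b passed the filter through the tumours alone, and without a filter limma called Insm1 alone of the pathway genes. Lmx1a, Pitx3 and En1 were listed at 0 in all 4 libraries. Chosen after their values were seen, Fev, the serotonin neuron factor, lay at 12.6 in tumour 2 and was listed at 0 in the other 3 libraries, and Lmx1b, another factor of those neurons, had levels of 1.22 and 3.35 in tumours 1 and 2 and 0 in the normal libraries (adjusted p = 0.0645).

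**Figure D4:**
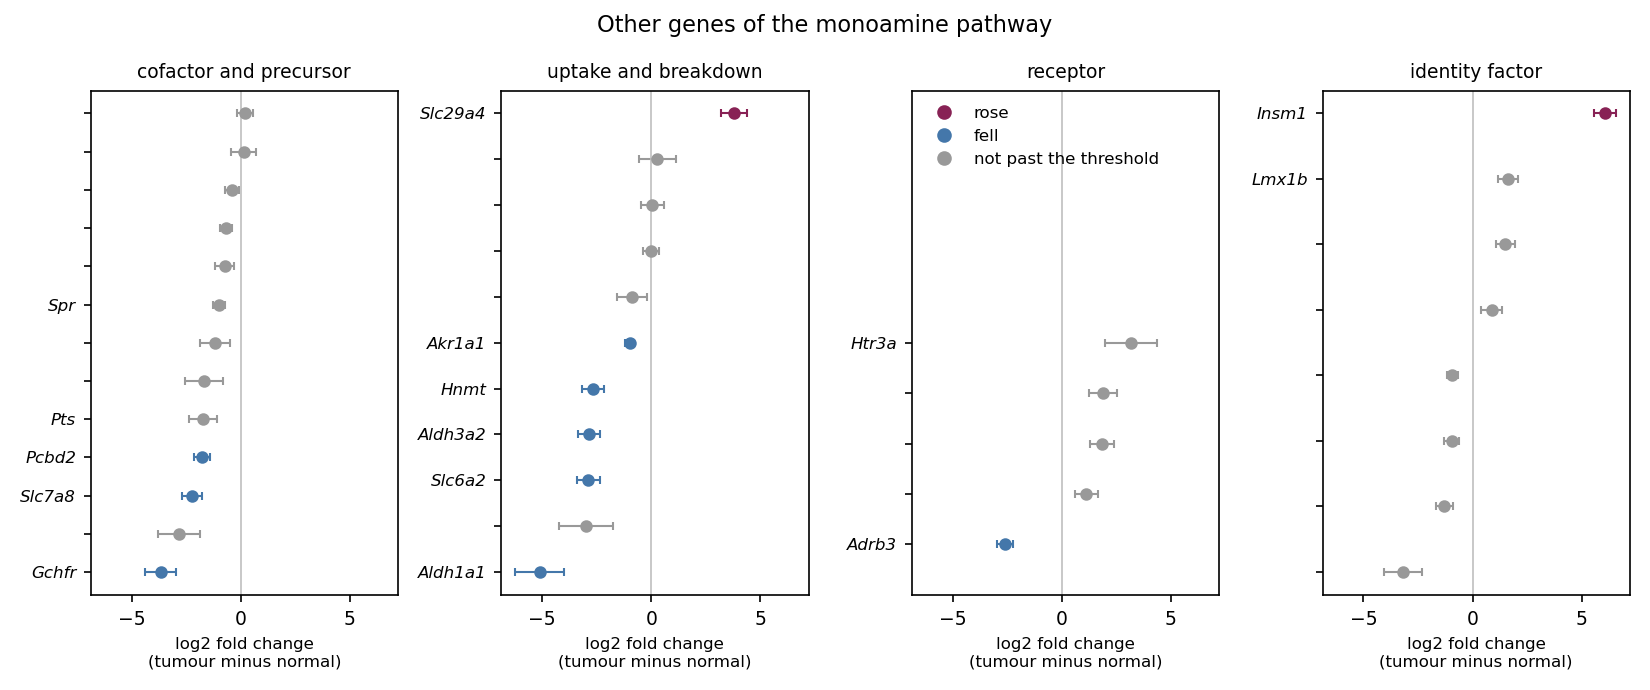
Log2 fold change (tumour minus normal, log2(scaled FPKM + 1)) of 37 of the 42 tested genes in the 4 pathway lists, with bars of 1 SE and names for those given in the text. Dark red marks genes that rose in the limma fit, blue genes that fell and grey those not past the threshold. Of the genes drawn, Aldh1a1 has the furthest fall (-5.13) and Insm1 the furthest rise (6.07).

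Genes beside the members on the chromosome did not share 1 pattern. Fignl1, a DNA repair gene 5.1 kb from Ddc, rose from 0.705 and 0 to 24.6 in tumour 1 and 27.0 in tumour 2 (limma, log2 difference 4.36 with SE 0.46, adjusted p = 0.0195), having passed the filter through the tumours alone. Grb10, the imprinted adaptor gene 32.4 kb from Ddc, was at 2.86 and 0.967 against 56.9 in tumour 1 and 3.62 in tumour 2, unlike Ddc, which was alike in the tumours. Ikzf1, 41.2 kb away, was at 0 and 0.278 in the normal prostates, 0.547 in tumour 1 and 2.97 in tumour 2. Beside Tph1, Sergef (4.8 kb) was at 3.70 and 5.01 against 11.2 and 9.27, and Saal1 (13.6 kb) at 2.07 and 3.78 against 8.18 and 5.95, so neither was highest in tumour 2. Pdzd8, 0.1 kb from Slc18a2, had levels of 4.61 and 4.77 in the normal libraries, 2.04 in tumour 1 and 4.67 in tumour 2. Near Gch1, Wdhd1 (51.5 kb) was at 1.17 and 0.317 against 19.9 and 7.96, higher in tumour 1 where Gch1 was low.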

How the data were processed

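RNA-seq was made from 2 normal prostates and 2 TRAMP tumours. The authors deposited a Cufflinks gene table per library with FPKM and the bounds of its confidence interval. Tools named are Cufflinks 2.1.1, Cuffdiff 2.1.1, TopHat2 2.0.8 and Trim Galore, with the build GRCm38 (mm10), per the submitters' processing notes, which list names without an order. The sources used here give no settings, annotation or strand of counting. Fragments from exons that a gene shares with an opposite-strand partner therefore cannot be told apart, and the paralogs Maoa and Maob, or Slc18a1 and Slc18a2, may share some fragments.

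The rest was computed here with Python 3.11.15, pandas 2.3.3, numpy 2.4.6, matplotlib 3.10.9, R 4.3.3 and limma 3.58.1. Left out were 27 rows whose gene name had become a date. A further 817 rows shared 280 names and were summed by name. Starts of deposited loci were raised by 1 to count from 1, and all 9 members lay at an overlapping GENCODE M21 position. Fragments were estimated as (FPKM/SD) squared, taking the interval as 2 SD on each side, and are too low where the interval also covers isoform assignment. A value of 0 is called listed at 0. All deposited rows carried the status OK, so none was flagged as a failed estimate, but a 0 does not show absence. Libraries were scaled by median-of-ratios factors (0.793 and 0.689 normal, 1.34 and 1.50 tumour) over 11469 genes above 0 in all 4. Genes with an FPKM of at least 1 in at least 2 libraries (13162) were tested on log2(scaled FPKM + 1) for tumour minus normal. The test was limma's, two-sided, with its variance prior following intensity. Benjamini-Hochberg adjustment ran over all genes tested, and the threshold was 0.05. Residual degrees of freedom were 2, to which the prior added 2.85. Changes of low genes are understated on this scale. With 2 against 2, an exact permutation test has 0.333 as its smallest two-sided p, and it was not used. The fit was also run on simulated data with 1 spread common to all genes and both groups. That setting differs from these libraries, so nothing is drawn from it.

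Members, the 4 pathway lists, the 12 marker lists and the tests were chosen with earlier results of these data known. Named were all members and up to 5 called genes per pathway list with the largest change (where fewer than 2 were called, also the 2 with the highest mean). The 5 genes most like Ddc and Maoa were named too, and some, not all, of the listed genes within 200 kb of a member. Genes named beyond this rule (Tph2, Pnmt, Pts, Spr, Hnmt, Akr1a1, Slc6a3, Slc6a4, Fev, Lmx1b, Foxa2, overlapping genes, factors and markers at 0) were picked for their role or after their values were seen, as was the log2 limit of 3 between the tumours. Some genes of these lists count in the totals and are not reported by name here. Alternatives changed the scaling, pseudocount, filter or trend, or left out 1 library.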

Additional observations from a re-analysis of the deposited data

How the results depend on the processing

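With FPKM as deposited, 3681 genes were called higher and 427 lower (other pathway genes 7 and 3). Scaling to the sum of genes that each hold at most 1% of a library gave 2537 and 554 (pathway lower 6), and under quantile normalization 5 pathway genes were lower. With a pseudocount of 0.1 the call of Slc18a1 was lost, leaving 0 members lower, and 7 pathway genes were higher and 5 lower. Without the filter on low values, 245 genes were higher and 249 lower, 0 members were lower, and 1 pathway gene was higher and 0 lower. Leaving out each library in turn gave 0 to 2170 genes higher and 0 to 3405 lower, 0 to 1 members higher and 0 to 1 lower, and 0 to 1 pathway genes higher and 0 to 19 lower. All counts were 0 in the 2 fits without a normal library, where 1338 genes higher and 1096 lower, and 1350 and 1004, had an unadjusted p under 0.05. Over the alternatives run, Ddc differed by 6.81 to 9.33 and Slc18a1 by -4.84 to -2.30. Of 10 named pathway genes, all but Htr3a were called in the main fit. Of the 10, 8 lost their call without the filter, 5 with FPKM as deposited and 4 under quantile normalization. Scaling to the sum lost 3, a pseudocount of 0.1 lost 3, and leaving out the intensity trend lost 1. In each fit without a normal library, 7 of 8 fitted did, and the other was Htr3a. The cause was not tested. Levels on 5 or fewer estimated fragments are limited by depth: Th in tumour 2, Maob in normal 2 and tumour 2, Ddc and Gch1 in normal 1, Slc18a1 in tumour 2, and Slc18a2 in all but tumour 2. No paired analysis was run, since the normal prostates and the tumours came from different mice and the labels link none of them in pairs.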

Other observations

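Carriers for other transmitters were measured beside VMAT1 and VMAT2. Of 7, 3 were tested, of which 1 rose, 1 fell and 1 did not pass. Slc17a9, the vesicular nucleotide carrier, was at 16.3 and 14.5 in normal prostate, listed at 0 in tumour 1 and at 1.22 in tumour 2 (log2 fold change -3.46, SE 0.54, limma's adjusted p = 0.0262), a call lost with a pseudocount of 0.1 and without the filter. Slc32a1, the carrier of GABA and glycine, rose from a listed 0 in each normal library to 3.17 in tumour 1 and 2.61 in tumour 2 (adjusted p = 0.0307). It passed the filter on low values through the tumours alone, and its call was lost under quantile normalization and without the filter. Slc17a6 and Slc17a7, the glutamate carriers of neurons, were at 0 in all 4 libraries. Hdc, the enzyme that makes histamine, which VMAT2 also carries, was at 0.221 in tumour 2 and listed at 0 in the other 3. Foxa2, a forkhead factor named after its values were seen, had a level of 55.0 in tumour 2 and 0 in the other 3 libraries. Tumour 2 is the library in which Tph1, Slc18a2 and Gch1 were high.

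The genes whose profile over the 4 libraries was nearest to that of Ddc, among 9684 compared, were Mir1291, Scg5, Birc5, Cdkn2a and Stmn3, at distances of 1.01 to 1.25 between mean-centred log2 values. Scg5, the granule protein 7B2, was at 0 in both normal prostates and at 128 and 83.9 in the tumours. Birc5, the mitotic protein survivin, was at 0 and 0.0981 against 205 and 110. Mir1291 is a microRNA locus, whose FPKM is uncertain at such a length. The nearest to Maoa were Chodl, Sephs1, Haus3, Papd4 and Hmgcs1, at 0.092 to 0.198. Hmgcs1, an enzyme of cholesterol synthesis, was at 4.63 and 3.80 in normal prostate, 18.9 in tumour 1 and 5.57 in tumour 2. With 4 libraries, a like profile is a description of these libraries.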
